A study of Mus musculus with 60 samples.

Results

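Peaks of H4K8ac, acetylation of lysine 8 on histone H4, that were annotated to an exon or to a 3' UTR were taken from the 6 H4K8ac peak lists of the series. A peak was a member when its annotation began with the word exon or read 3' UTR. This gave 15943 of 155961 H4K8ac peaks (10.2%), of which 11769 were exon peaks and 4174 were 3' UTR peaks. Exon peaks exclude every peak called at a promoter, 5' UTR or 3' UTR, because the annotation step assigns 1 class per peak in that order, and it counts any overlap with an exon.

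The study compared hippocampal neurons of male Emx1-NuTRAP mice that had a running wheel (exercised) or standard cages (sedentary) from postnatal day 21 to 41. In these mice Emx1-Cre, which is active mainly in excitatory neurons of the cortex and hippocampus but also in neural progenitors, switches on tags on the nuclear envelope and on ribosomes. Nuclei were purified either together with RNA from both hippocampi of a mouse (SIT, simultaneous isolation) or alone from the left or the right hippocampus. Each of these 3 kinds of isolation is an arm below. The labels hold 20 H4K8ac samples, with 4 per condition in the SIT arm and 3 per condition in each of the other arms, but each condition and arm has a single peak list with no sample of origin.

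The lists held 38136 peaks for exercised SIT, 30358 for sedentary SIT, 12168 for exercised left, 36425 for sedentary left, 13715 for exercised right and 25159 for sedentary right. The 2 exercised lists of the separate arms were therefore the shortest. The study left out exercised H4K8ac libraries with too high a false discovery rate, more of them from the separate arms than from SIT, so fewer libraries than labelled samples may stand behind the exercised lists. Its figure of peaks at differentially expressed genes also gives fewer sedentary mice than the SIT arm has labelled samples, so the same may hold for sedentary SIT. The lists give positions and annotations without read counts or signal, so the depth behind a peak is unknown and a missing peak is not evidence of missing acetylation. Each list was treated as 1 unit, and a p-value measures only how regularly a difference recurred over lists that share many of their regions. As a check of cell type, promoter peaks of H4K8ac were assigned to between 4 and 6 of 9 excitatory neuron markers in a list and to 0 of 11 GABAergic interneuron markers in each list. Among the excitatory markers, Slc17a6 had no promoter peak in any list. The same counts were 1 to 4 of 9 for astrocytes, 1 or 2 of 10 for oligodendrocytes, and 1 or 2 of 10 for microglia and endothelium.

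Histone acetylation loosens the contact of DNA with the histone tail and offers a binding site for bromodomain proteins. H4K8ac is placed by acetyltransferases such as those of the MYST and p300/CBP families and is best known from active promoters and enhancers. Acetylation inside a gene body can mark an internal promoter, an enhancer lying in an intron, the body of a transcribed gene, or the end of a gene where transcription terminates, and an exon or 3' UTR label by itself does not separate these.

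The places where exon calls recurred in all 6 lists are shown by short sequences of the reference genome (GRCm38, the build of the lists, also named mm10), written in the direction of transcription. In exon windows the 15 lower case bases lie just before the exon and the capitals are its first 15 bases, so that lower case ends with the splice acceptor unless the exon is the first. In the last window the capitals mark a stop codon, with the end of the coding sequence before it and the start of the 3' UTR after it. Each of the 7 windows was covered by H4K8ac peaks in all 6 lists.
Bcl11a exon 3, chr11:24158238-24158267, plus strand: gggtttctttcacagATAAACTTCTGCACT
Sh3bp5 exon 4, chr14:31387869-31387898, minus strand: cttctctctcaacagGCTCAGCTGGAGGCG
Myt1l exon 19, chr12:29886108-29886137, plus strand: catttgtacttgtagGTGCCCCACCCCTGG
5730522E02Rik exon 3, chr11:25849519-25849548, minus strand: gcttcttgtttgcagGGACACATGTGGAGA
3110006O06Rik exon 1, chr13:78171615-78171644, plus strand: tccctttgccagcgaGTCTCCCGAATTTGC
Gm40418 exon 1, chr12:50120294-50120323, plus strand: atcctgtttttctatTTCATTTTCTTTGTG
Snx10 stop codon, chr6:51588948-51588977, plus strand: ctgcaggagtccTGAgaaggaattctgggg

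The exons behind these windows were short compared with the peaks that touched them. The exon measured 102 bp in Bcl11a, 165 bp in Sh3bp5, 63 bp in Myt1l, 237 bp in 5730522E02Rik and 63 bp in 3110006O06Rik. In Gm40418 and 3110006O06Rik, which are long noncoding RNA genes, the window is the start of the transcript itself.

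Exon peaks made up 6.74 to 8.27% of each H4K8ac list. The share was 7.88% in exercised SIT (95% Wilson interval 7.61 to 8.15), 6.74% in sedentary SIT (6.46 to 7.03), 7.67% in exercised left (7.21 to 8.15), 7.46% in sedentary left (7.19 to 7.73), 7.21% in exercised right (6.79 to 7.66) and 8.27% in sedentary right (7.93 to 8.61). Exercised minus sedentary was 1.14 percentage points in SIT, 0.208 in left and -1.06 in right, a mean of 0.0966 ± 1.10 (SD, n = 3 arms). The direction differed between arms, and the exact two-sided sign-flip permutation test gave p = 0.75, with 0.25 the smallest p that 3 arms allow. The intervals of the paired lists did not overlap in SIT or right, but they cover counting error over peaks only.

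Peaks on 3' UTRs took smaller shares, from 2.30 to 2.90%. They made up 2.74% of exercised SIT (2.58 to 2.91), 2.53% of sedentary SIT (2.36 to 2.71), 2.90% of exercised left (2.62 to 3.21), 2.84% of sedentary left (2.68 to 3.02), 2.30% of exercised right (2.06 to 2.56) and 2.61% of sedentary right (2.42 to 2.82). Exercised minus sedentary was 0.213 points in SIT, 0.0596 in left and -0.315 in right (mean -0.0140 ± 0.271, SD, n = 3 arms, p = 1.0 by the same exact test). No difference between exercised and sedentary lists was detected for either class over the 3 arms.

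**Figure D1:**
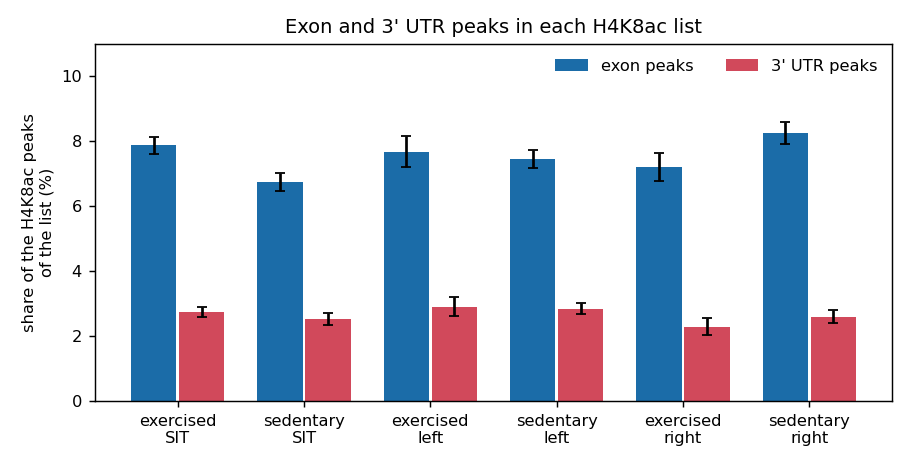
Share of the H4K8ac peaks of each list (%) that were annotated to an exon (blue) or a 3' UTR (red), with 95% Wilson intervals over peaks. Exon shares ran from 6.74 to 8.27% and 3' UTR shares from 2.30 to 2.90%, with the exercised list higher in SIT and left and lower in right for both classes.

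Chromosome X held 14 of the exon peaks and 2 of the 3' UTR peaks, out of 443 H4K8ac peaks on that chromosome over the 6 lists, and chromosome Y held 1 exon peak. By comparison chromosome 1, with the most members, held 1152 exon and 407 3' UTR peaks among 13256.

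Exon peaks were divided almost evenly between protein-coding and other genes. Using the transcript that the annotation names and its gene in GENCODE M21, 51.2% of exon peaks fell on protein-coding genes, 31.7% on long noncoding RNA genes, 8.52% on genes awaiting experimental confirmation (TEC, mostly unspliced transcript models), 5.04% on pseudogenes and 2.59% on small RNA genes. Another 0.918% named a transcript that was not found in that release. The order was the same in each list, with protein-coding genes between 47.8% (exercised left) and 54.7% (sedentary left) and long noncoding genes between 29.3% (sedentary left) and 35.3% (exercised right).

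**Figure D2:**
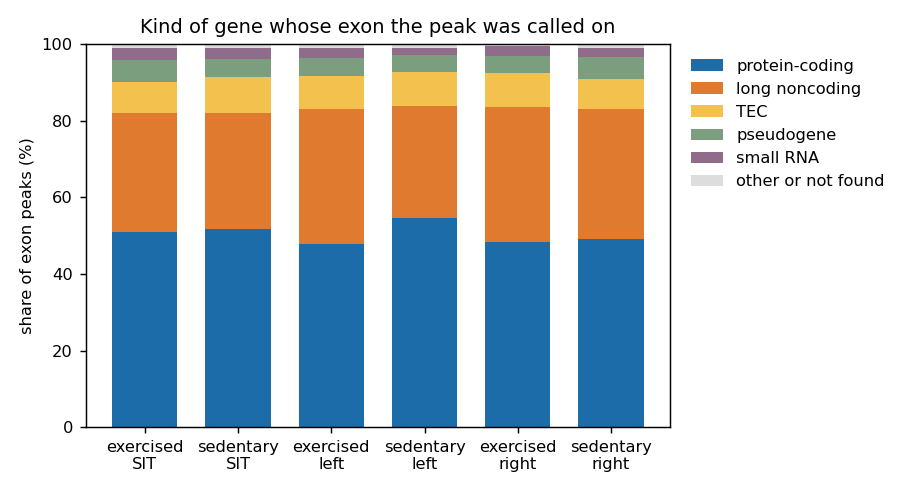
Exon peaks of each list divided by the kind of gene whose exon was named (%), with TEC for genes awaiting experimental confirmation. Protein-coding genes took 47.8 to 54.7% and long noncoding genes 29.3 to 35.3% in the 6 lists.

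The noncoding exon peaks often contained the start of their own transcript. Of all exon peaks, 44.7% lay on a transcript that the lists give without an Entrez gene number, and 51.1% of these held that transcript's start. By kind of gene, 40.3% of exon peaks on long noncoding genes, 48.8% of those on TEC genes and 93.1% of those on small RNA genes held the start of the transcript they were called on, against 0.980% of those on protein-coding genes. Peaks within the 3 kb promoter window of an assigned start site are not exon peaks. The class rule itself thus keeps such starts out of the exon class, and the contrast between kinds of gene is partly set by it. Over all gene kinds, 2689 of 11769 exon peaks (22.8%) held their own transcript's start. These peaks were wider (median 2034 bp) than the other exon peaks (median 1741 bp) and had a median of 12.7 CpG per 1000 bp, against 10.8. Gm40418 and 3110006O06Rik, printed above, belong to this kind.

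The gene printed beside a peak was frequently not the gene whose exon it touched. In 54.3% of exon peaks the gene of the exon differed from the gene assigned by nearest start site, with a range of 50.9 to 58.6% over the lists. As given above, 44.7% of exon peaks lay on a transcript without an Entrez gene number, and their part in this mismatch was not tested. For 3' UTR peaks, the gene owning the UTR differed from the assigned gene in 34.5%. At Kat6b, which encodes a MYST family acetyltransferase, 3 peaks over the 3' UTR carried the name Dupd1 in the lists. A region of 33 peaks on chromosome 13 carried the name Nr2f1, although both exons of 3110006O06Rik were among those touched. Genes below are named by the exon or UTR touched.

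By position in the transcript, 52.4% of exon peaks lay on an internal exon, 14.05% on the first, 16.9% on the last and 16.6% on the only exon of a transcript. Internal exons were the largest class in each list, between 48.6 and 54.7%. The median exon rank was 3 in every list. On protein-coding genes it was 7 or 8, in transcripts with a median of 14 to 16 exons. Scaled from 0 for the first exon to 1 for the last, the median position was 0.5 in 5 lists and 0.565 in sedentary SIT. Exercised minus sedentary was -0.0652 in SIT and 0 in the left and right arms (exact permutation p = 1.0, n = 3 arms). The median is tied at 0.5 in 5 lists, and the mean position was lower in the exercised list of all 3 arms, with 0.525 against 0.547 in SIT, 0.491 against 0.528 in left and 0.504 against 0.510 in right. The mean difference was -0.0219 (exact permutation p = 0.25, the smallest that 3 arms allow, adjusted p = 0.75), so the design could not place it past the threshold.

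The exons were mostly small. Their median length was 166 bp (quartiles 104 and 522 bp), close to the 152 bp of all distinct exons of the release. Exons of 1000 bp or more carried 18.7% of exon peaks and made up 9.04% of the release, a comparison that any-overlap annotation favours since a long exon is more easily touched. The bases of an exon peak were chiefly not exonic, with a median of 9.87 to 12.4% of the peak in annotated exons, or 185 to 213 bp. Between 43.3 and 49.8% of exon peaks touched coding sequence.

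Of the 3' UTR peaks, 76.7% overlapped the 3' UTR of a protein-coding transcript and 964 overlapped only that of another coding transcript model, such as one marked for nonsense-mediated decay. The remaining 7 overlapped no 3' UTR of the release. Among the first kind, the UTR covered a median of 851 bp, or 46.6% of the peak, and more than 50% of the peak in 47.6%. Coding sequence was also touched by 59.0% of all 3' UTR peaks.

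Exon and 3' UTR peaks were wider than intron peaks in all 6 lists. The median exon peak measured 2022 bp in exercised SIT, 1381 bp in sedentary SIT, 1873 bp in exercised left, 1662 bp in sedentary left, 1691 bp in exercised right and 2037 bp in sedentary right, and the median intron peak measured 1744, 1233, 1743, 1378, 1565 and 1864 bp in the same order. The 3' UTR medians were 1901, 1329, 1864, 1516, 1639 and 2030 bp. The exon difference was 190.0 ± 72.7 bp (SD, n = 6 lists) and the 3' UTR difference 125 ± 35.7 bp, each with adjusted p = 0.03125 by the exact sign-flip permutation test, the smallest that 6 lists allow. A wide peak has more chance of touching an exon, so the annotation rule itself favours width. Without the peaks that hold their own transcript's start, the exon difference was 140 bp (p = 0.03125 by the same exact test).

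**Figure D3:**
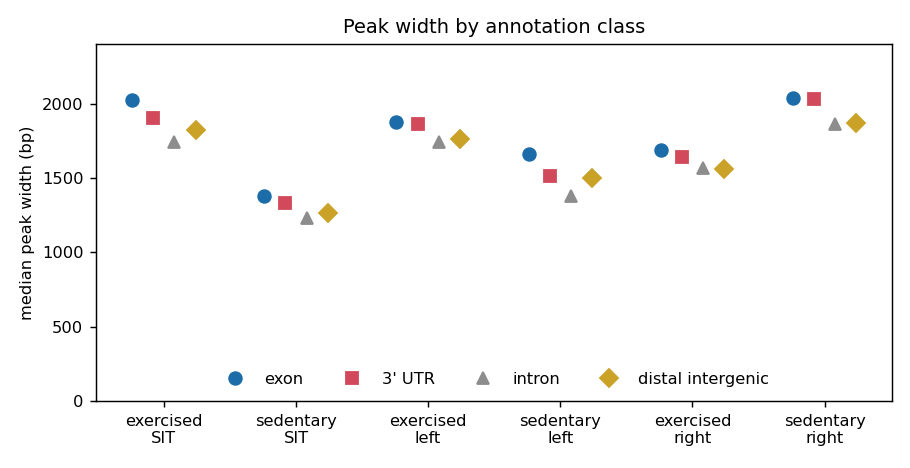
Median width (bp) of exon, 3' UTR, intron and distal intergenic H4K8ac peaks in each of the 6 lists. Exon medians (1381 to 2037 bp) and 3' UTR medians (1329 to 2030 bp) lay above the intron median of the same list in each case.

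Members also lay in DNA richer in G and C. The median G+C content of exon peaks ran from 43.3% (sedentary SIT) to 45.3% (exercised left) and that of 3' UTR peaks from 44.4% (sedentary left) to 46.9% (exercised left), compared with 41.7 to 43.5% for intron peaks. The differences of 1.52 ± 0.256 and 2.62 ± 0.521 percentage points (SD, n = 6 lists) had the same sign in all 6 lists (adjusted exact permutation p = 0.03125 each). A member holds exon or UTR bases by rule, and the part of those bases in the differences was not tested. Without the exon peaks that hold their own transcript's start, the exon difference was 1.03 points. With 3' UTRs of protein-coding transcripts only, the 3' UTR difference was 3.06 points. For CpG dinucleotides the medians were 10.8 to 11.8 per 1000 bp in exon peaks, 11.9 to 13.4 in 3' UTR peaks, 8.34 to 9.43 in intron peaks and 16.8 to 21.7 in promoter peaks. Repeat-masked bases differed little, with medians of 14.5 to 16.01% in exon peaks and 15.2 to 16.4% in intron peaks.

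Genes with exon or 3' UTR peaks were shorter than genes with intron peaks, by far less for exon peaks when protein-coding genes alone were counted. Counting each gene once, exon-peak genes had a median length of 28980 to 34973 bp over the lists and intron-peak genes 95762 to 127469 bp. The mean difference was -77306 ± 13482 bp (SD, n = 6 lists, adjusted exact permutation p = 0.03125). Among protein-coding genes alone the medians were 102044 to 122227 bp for exon-peak genes and 108369 to 145396 bp for intron-peak genes, and the difference was -14230 bp, with the same p and a range of -30531 to -6325 bp over the lists. Genes assigned to 3' UTR peaks had medians of 37739 to 44056 bp, against 75957 to 103932 bp for genes assigned to intron peaks, a difference of -46712 ± 10474 bp (adjusted exact permutation p = 0.03125, 6 of 6 lists). Long introns give more room for an intron peak, and the part of this in the comparison was not tested. Exon peaks were nearer to the assigned start site than intron peaks, with a median difference of -9656 ± 2200 bp (6 of 6 lists, adjusted exact permutation p = 0.03125), and their median distance to the nearest start of any GENCODE transcript was 4163 to 5336 bp.

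Presence across lists was uneven. Merging the peaks of all 6 lists wherever they overlapped gave 63514 regions, of which 7610 held at least 1 member. Of these 7610 regions 41.9% had a peak in a single list and 792 (10.4%) had a peak of any class in all 6, compared with 49.9% and 5.99% of all regions. An exon call in each of the 6 lists occurred in 211 regions and a 3' UTR call in each in 63. A region became a member through a call in any list, so a region with peaks in more lists had more chances to be counted, and the excess over all regions is partly set by that choice. The part of region width was not tested.

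Within each list, members overlapped all 5 other lists more often than intron peaks did. For exon peaks the shares were 13.6% in exercised SIT, 16.5% in sedentary SIT, 34.5% in exercised left, 13.7% in sedentary left, 33.2% in exercised right and 18.1% in sedentary right, where all peaks of the same lists gave 9.91, 12.5, 30.2, 10.4, 27.2 and 15%. For 3' UTR peaks they were 11.7, 13.2, 29.5, 11.7, 26.98 and 17.8%, and for intron peaks 8.20, 10.3, 25.6, 8.11, 24.6 and 13.2%. The shortest lists had the highest shares in each class. Exon minus intron was 6.60 ± 1.69 points and 3' UTR minus intron 3.46 ± 0.792 points (SD, n = 6 lists, adjusted exact permutation p = 0.03125 for both). Without the exon peaks that hold their own transcript's start, the exon difference was 3.98 points, and with a reciprocal overlap of 50% the differences were 2.77 and 1.57 points, each with p = 0.03125 by the same exact test. Among peaks of 1000 to 2000 bp the exon difference was 2.26 points (adjusted exact permutation p = 0.0625) and the 3' UTR difference -0.203 points (adjusted p = 0.6875), so neither difference passed the threshold in this narrower range of widths. Against distal intergenic peaks the exon difference was 3.40 points (adjusted exact permutation p = 0.03125) and the 3' UTR difference 0.257 points (adjusted exact permutation p = 0.8438), with a range of -4.08 to 3.64 over the lists.

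**Figure D4:**
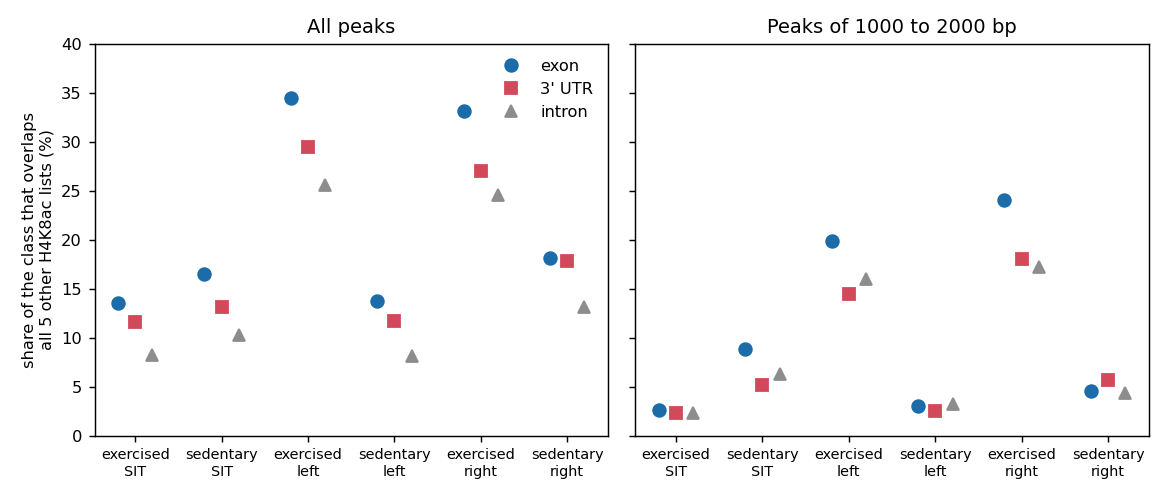
Share of exon, 3' UTR and intron peaks of each list (%) that overlap a peak in all 5 other H4K8ac lists, for all peaks (left) and for peaks of 1000 to 2000 bp (right). With all peaks, exon (13.6 to 34.5%) and 3' UTR points lie above intron points (8.11 to 25.6%) in each list, and in the width window 3' UTR points lie below intron points in 4 of the 6 lists.

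The position of the exon went with presence. Peaks on first exons overlapped all 5 other lists in 24.6 to 48.8% of cases, above peaks on internal exons (10.9 to 29.2%) in each of the 6 lists. Last exons gave 13.2 to 36.9% and single-exon transcripts 13.3 to 33.1%. Peaks on long noncoding genes gave 19.4 to 44.4% and peaks on protein-coding genes 10.5 to 28.1%, again higher in each list for the noncoding kind. The noncoding kind was also wider in each list, with medians of 1552.5 to 2117 bp against 1334 to 2019 bp. Over all lists 40.3% of these peaks held their own transcript's start, against 0.980% on protein-coding genes. The part of width and of own starts in this difference was not tested. First-exon peaks were wider than internal-exon peaks in each list, with medians of 1791 to 2222 bp against 1363 to 2015 bp, and the part of width in the overlap was not tested. They were also the most CpG-rich, with medians of 13.5 to 15.5 per 1000 bp against 10.6 to 11.7 on internal exons, and 87.1 to 94.4% of them held their own transcript's start. These differences were described and not tested.

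**Figure D5:**
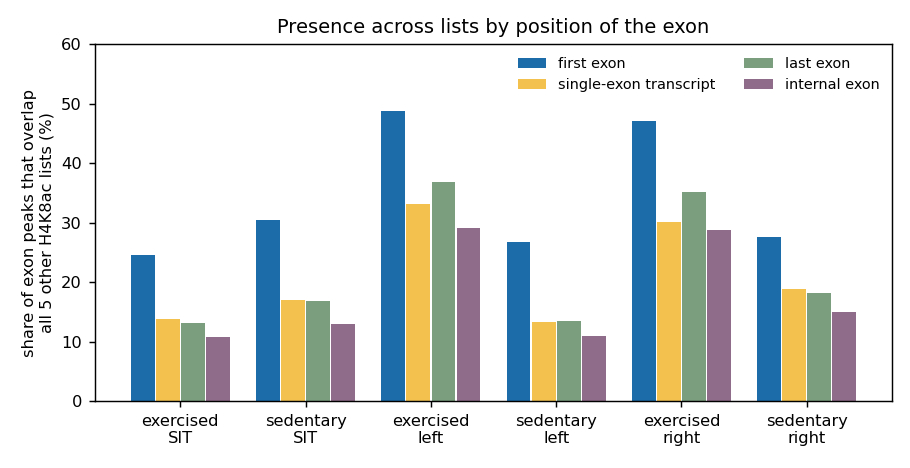
Share of exon peaks (%) that overlap a peak in all 5 other H4K8ac lists, by the position of the exon in its transcript, for each list. First exons (24.6 to 48.8%) stand above internal exons (10.9 to 29.2%) in all 6 lists.

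Between the conditions of an arm, exon peaks without any overlapping peak in the other list numbered 1560 of 3004 in exercised SIT (51.9%, all peaks 56.1%), 757 of 2046 in sedentary SIT (37.0%, all peaks 41%), 248 of 933 in exercised left (26.6%, all peaks 26.9%), 1935 of 2717 in sedentary left (71.2%, all peaks 74.8%), 289 of 989 in exercised right (29.2%, all peaks 32%) and 1303 of 2080 in sedentary right (62.6%, all peaks 64.4%). The longer list of each arm held the larger unmatched share. For 3' UTR peaks the unmatched shares were 54.4, 42.2, 29.2, 74.2, 32.1 and 64.1% in the same order, close to all peaks. Exon peaks met the other condition more often than intron peaks by 6.10 ± 1.95 points and 3' UTR peaks by 3.18 ± 1.04 points (SD, n = 6 lists, adjusted exact permutation p = 0.03125). Both lists of an arm score the same overlaps, each from its own side, so the 6 values come from only 3 pairs of lists. The exact permutation test over 3 arms cannot go below p = 0.25, so the p-values of this comparison over 6 lists overstate how regularly it recurred. At 1000 to 2000 bp these became 1.92 points (adjusted exact permutation p = 0.2812) and -0.420 points, which did not pass either. Without the exon peaks that hold their own start, the exon difference was 2.95 points (adjusted exact permutation p = 0.03125). Against distal intergenic peaks the exon difference was 2.00 points (adjusted exact permutation p = 0.1875) and the 3' UTR difference -0.919 points (adjusted exact permutation p = 0.4062).

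A lost exon call did not always mean a lost peak. Where an exon peak met a peak of the other condition, that peak was also called exon in 74.8 to 85.0% of cases, intron in 7.84 to 19.9% and promoter in 0.346 to 2.86%. Where a 3' UTR peak met one, 72.9 to 85.6% were also called 3' UTR and 3.83 to 12.6% intron. Mef2c shows this plainly, as described below.

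Few member regions separated the conditions in every arm. A peak in all 3 exercised lists with none in a sedentary list occurred in 14 of the 7610 member regions (0.184%, all regions 0.104%), and the reverse in 61 (0.802%, all regions 0.847%). The sedentary list was the longer one in the left and right arms and the shorter one in SIT, and the part of list length in these counts was not tested. The 5 of the first kind with the largest peak width summed over lists lay on Gm26901, a long noncoding gene, on Ino80, the ATPase of a chromatin remodeller, on Wdtc1, on Nrde2 and on Spag6, a gene of the motile cilium. Peaks of the Ino80 region (chr2:119412111-119415803) measured 2047 bp in exercised SIT, 3208 bp in exercised left and 1360 bp in exercised right, with an exon call in 1 of the 3. At Wdtc1 and at Spag6 all 3 exercised lists made an exon call, and the peaks at Spag6 measured 2474, 1356 and 1861 bp.

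The 5 member regions found only in the sedentary lists of all 3 arms with the largest summed peak width lay on Brd9, which encodes a bromodomain subunit of a SWI/SNF remodeller, on Sh3gl2, which encodes endophilin A1 of synaptic vesicle endocytosis, on the long noncoding gene 4930546C10Rik, on Dupd1, whose 3' UTR was touched, and on Nin, which encodes the centrosomal protein ninein. The Brd9 region summed to 3639 bp in sedentary SIT, 2534 bp in sedentary left and 3203 bp in sedentary right, with an exon call in 1 list and promoter calls beside it. The 4930546C10Rik region was called exon in all 3, with 2528, 2757 and 2991 bp.

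The member regions with an exon call in every list were ranked by peak width summed over the lists (the widest regions below, whatever their span), and the first 10 were mostly long clusters of peaks. The first, with 55 peaks over chr11:24121082-24171728, lay on Bcl11a, a zinc finger transcription factor of cortical and hippocampal neurons, and on the antisense gene 4930538E20Rik. Its peaks summed to 42149 bp in exercised SIT, 23774 bp in sedentary SIT, 34243 bp in exercised left, 43774 bp in sedentary left, 25454 bp in exercised right and 38043 bp in sedentary right. Bases covered in all 6 lists amounted to 13113 bp, 25.9% of the span, in 9 stretches. Exon 3 of Bcl11a, shown above, was covered in full by all 6 lists, while the neighbouring exon 4 (1743 bp) was named by 3 lists. The same region was also called 3' UTR in each list, and was the first of that kind as well.

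On chromosome 1 (149850481 to 149885986), 29 peaks lay on Pla2g4a, which encodes the cytosolic phospholipase A2 that releases arachidonic acid. This was where the widest exon peak of 3 lists lay, with 27866 bp in exercised SIT, 23516 bp in sedentary left and 23257 bp in sedentary right. The annotations named different exons in different lists, from exon 8 to exon 15 of 18, and exons 9 and 15 were each named by 4 lists. Exon 13 (72 bp) and exon 14 (240 bp) were covered in full by all 6 lists, although each was named by 2. Of the region 10689 bp (30.1%) was covered in all 6 lists.

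Myt1l, which encodes a neuronal zinc finger repressor, had 25 peaks over 21816 bp, and each list called exon 19 of 25, of which all 63 bp were covered in each. Sh3bp5, a mitochondrial JNK-binding protein gene, had 39 peaks over 34156 bp, with exon 4 of 11 named by each list. Nrp2, the semaphorin receptor neuropilin 2, was called at exon 2 of a 3-exon transcript by each list, but bases shared by all 6 lists made up 9.69% of that region, the lowest of the 10 widest regions with an exon call in all 6 lists. In exercised right its peaks summed to 4207 bp and in exercised SIT to 22332 bp. Cdh11, which encodes cadherin 11, was similar with 10.02% shared.

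Gm40418 had the largest shared part of the 10 widest regions with an exon call in all 6 lists. This long noncoding gene, assigned to the distant gene Prkd1 by the lists, had 12 peaks over chr12:50100653-50125087, and 14264 bp of the span (58.4%) was covered in all 6 lists as 1 unbroken stretch. Its widths summed to 20340 bp in exercised SIT, 15027 bp in sedentary SIT, 19147 bp in exercised left, 21442 bp in sedentary left, 16689 bp in exercised right and 21900 bp in sedentary right, so the groups overlapped. It held the widest exon peak of sedentary SIT (15027 bp) and of exercised left (17073 bp). The widest exon peak of exercised right (14864 bp) was called on Gm25888, a small RNA gene of 302 bp.

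Among the 5 widest regions with a 3' UTR call in all 6 lists, Sdccag8 and Snx10 had the largest shares of bases covered in each list. At Sdccag8, a centrosomal gene, 8354 bp (72.8% of the span) was covered in each list, with summed widths of 10847, 10132, 8878, 11364, 8823 and 10888 bp in the list order used above. None of the 6 calls at Sdccag8 touched the 3' UTR of a protein-coding transcript, while all 6 at Snx10 did. At Snx10, a sorting nexin of endosomes, 8583 bp (58.7%) was shared and included the stop codon shown above, with summed widths of 13970, 10198, 10171, 11805, 9927 and 10158 bp. Chn1, which encodes chimaerin 1, a GTPase-activating protein that turns Rac off, shared 4194 bp (25.6%). Depdc5, a subunit of the GATOR1 complex that restrains mTORC1, shared 6177 bp (21.7%). Of the 3' UTR calls, 4 of 10 at Chn1 and 2 of 11 at Depdc5 touched no 3' UTR of a protein-coding transcript.

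The widest 3' UTR peak of 4 lists lay on Zbtb18, a transcriptional repressor gene needed for cortical neuron development (chr1, gene at 177442351 to 177450764), in sedentary SIT, exercised left, sedentary left and sedentary right, with 13332, 12869, 12341 and 12676 bp. In exercised SIT its 3' UTR peak measured 15192 bp. Exercised right had a peak of 12476 bp in the same region that was called exon, so a broad peak was there in all 6 lists. The peaks began in the last part of Zbtb18, with 675 to 1789 bp of UTR, and ran on past its end. In exercised SIT the widest 3' UTR peak was at Gria1, an AMPA receptor subunit, with 18708 bp. Other lists had shorter peaks there, with 3' UTR calls of 1318 bp in exercised left and 2031 bp in sedentary right, and exon calls in sedentary left.

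Genes with the largest numbers of exon peaks were long. Dock4, a Rap and Rac regulator of 400923 bp, had 36 exon peaks over the lists, with 7 in exercised SIT, 6 in sedentary SIT, 4 in exercised left, 9 in sedentary left, 1 in exercised right and 9 in sedentary right. Trio, a guanine nucleotide exchange factor, had 30, Lama2, a laminin chain, 28, Adgrb3, an adhesion G protein-coupled receptor, 27, and Ttc7b 26. Trio had between 4 and 6 in each list and so varied least, while Dock4 and Ttc7b had 1 each in exercised right. Among 3' UTR peaks Cdk5rap2, a centrosomal gene, led with 38, followed by Anks1b, a postsynaptic scaffold, with 32, Ddo with 20, Ippk with 17 and Tnik with 15. Many of these calls touched no 3' UTR of a protein-coding transcript, namely 30 of 38 at Cdk5rap2, 22 of 32 at Anks1b, 12 of 17 at Ippk and all 15 at Tnik, against 3 of 20 at Ddo. In all, exon peaks touched 4130 genes and 254 of these (6.15%) in each of the 6 lists, and 3' UTR peaks touched 1718 genes and 63 (3.67%) in each.

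The gene lists were read beside all 21938 protein-coding genes, of which 14.1% had an exon or 3' UTR peak in any list and 3.37% in at least 4 lists. Their median length was 17425 bp, and longer genes have more room for peaks. The lists of genes and the values beside them are descriptions without a test.

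Of 23 cortical and hippocampal transcription factors (median 93200 bp), 12 had a member peak and 8 had one in at least 4 lists. Bcl11a had exon and 3' UTR peaks in all 6. Mef2c, a MADS box factor of synaptic plasticity, had 3' UTR peaks of up to 11434 bp in exercised SIT, 6911 bp in sedentary SIT, 5828 bp in exercised left and 5226 bp in exercised right. The sedentary left and sedentary right lists had no 3' UTR call there, but each had a single broad peak over the region, of 16176 and 15321 bp, that was called promoter. Tbr1, a factor of glutamatergic neurons, had a 3' UTR peak of 5800 bp in sedentary SIT, 2832 bp in exercised left, 11579 bp in sedentary left, 4982 bp in exercised right and 9668 bp in sedentary right. Each held the same 1676 bp of 3' UTR, and in exercised SIT the region held a peak of 13469 bp under another call. Nfib had exon peaks in 6 lists with widest values of 2469 to 3537 bp, and Tcf4 had members in 6 lists (9 of its 10 3' UTR calls touched no protein-coding 3' UTR), Zbtb18 in 5, and Nfia and Lhx2 in 4. At Nfia the exon peak of exercised left measured 15658 bp, and sedentary right had a peak of 19799 bp in the same region among intron and promoter calls.

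Of 34 synaptic scaffold, receptor and release genes (median 123412 bp), 17 had a member peak and 6 had one in at least 4 lists. Gria2, an AMPA receptor subunit, had 13 exon and 5 3' UTR peaks in 6 lists, on exons of rank 4 to 13, with the widest exon peak of 8753 bp in exercised SIT, 3457 bp in sedentary SIT, 1194 bp in exercised left, 4754 bp in sedentary left and 1960 bp in sedentary right. Exercised right had no exon call at Gria2. Syt1, the calcium sensor of vesicle release, had 13 exon peaks in 6 lists, of which the widest measured 4887, 4341, 2614, 6819, 1284 and 1599 bp in list order. Gria1, Grm5 and Shank2 had members in 4 lists each.

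Chromatin genes were near the background: of 34 enzymes and readers of histone acetylation and methylation, 6 (17.6%) had a member and 1, Kat6b, had one in at least 4 lists. Kat6b had 14 exon peaks. The one on an exon of 109 bp, exon 3 of a 6-exon transcript, recurred in 5 lists, and measured 3462 bp in exercised SIT, 5640 bp in exercised left, 3727 bp in sedentary left, 3518 bp in exercised right and 2478 bp in sedentary right. Of 18 immediate early genes, which are short (median 5687 bp), 3 had a member, Nr4a3 and Homer1 in 4 lists each and Bdnf in 3. Nr4a3, a nuclear receptor, had exon peaks of 7407 bp in exercised SIT, 1121 bp in sedentary SIT, 3735 bp in sedentary left and 2006 bp in exercised right, and the other two lists had only promoter calls in that region.

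Of 13 genes with a very long coding exon, 7 had a member. Ank2 (ankyrin B) had 15 exon and 9 3' UTR peaks in 6 lists, Zfhx2 13 and 4 in 6 lists, and Ank3 (ankyrin G) members in 4 lists. Of the 22 genes that the study names, 6 had a member and 0 had one in at least 4 lists. This list was chosen by the study on the same samples.

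Of the marker lists, excitatory neuron markers had a member in 3 of 9 genes (Tbr1 in 5 lists), GABAergic interneuron markers in 1 of 11, astrocyte markers in 3 of 9, oligodendrocyte markers in 2 of 10, and microglia and endothelial markers in 1 of 10. Slc1a2, the astrocyte glutamate transporter, had members in 5 lists and Mbp, a myelin gene, in 4. Peaks at genes of other cell types were thus present among the members, and their part in the values above was not tested.

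Overlap with H3K27me3, a methylation of repressed genes, was rare. Between 0 and 19 exon peaks of a list overlapped a peak of this mark in the matching list, at most 0.632% (exercised SIT), and at most 3 of the 3' UTR peaks of a list did, 0.287% in exercised SIT. All H4K8ac peaks overlapped at 0.117 to 0.700%.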

How the data were processed

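CUT&RUN libraries of H4K8ac were made from tagged hippocampal nuclei. Per the labels the authors used FastQC 0.11.9, Bowtie2 2.4.1, SEACR and ChIPseeker 1.8.6 with mm10, with a promoter window of 3 kb. How libraries were combined into a list is not given in the sources used here. The deposited tables hold positions, widths, distances and lengths in bp, with an annotation and a gene per peak, and no counts, signal or p-values. IgG samples, 20 of 60, are not analysed here.

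Intervals were used as listed (width equals end minus start plus 1 in all 155961 peaks, and 1 start is 0). Exons, UTRs and gene lengths came from GENCODE M21 and sequence from GRCm38. Overlap meant at least 1 bp. Exact two-sided sign-flip permutation tests ran over 6 lists (11 tests) or 3 arms (3 tests), adjusted by Benjamini-Hochberg, and 0.05 was the threshold. The interval and test functions were tested on simulated data. Members and gene lists were chosen with earlier results of these data known. Named regions were the 10 and 5 widest (by peak width summed over lists, not by span) with an exon or 3' UTR call in all 6 lists, the widest of each list, the 5 widest by the same sum found in 1 condition only in all 3 arms, the 5 genes with most peaks of each class, and listed genes with members in at least 4 lists. Of these listed genes, 1 is not reported here. Variations were chromosomes 1 to 19 and X, the widest 50%, covered bases, 1000 to 2000 bp, 3 to 50 kb from the start, reciprocal overlap of 50%, the central 300 bp, distal intergenic peaks as comparison, other summaries, protein-coding genes and leaving out lists. Those without own starts and with protein-coding UTRs alone were added after seeing the data. Python 3.11.15, numpy 2.4.6, pandas 2.3.3, scipy 1.17.1 and matplotlib 3.10.9 were used.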

Additional observations from a re-analysis of the deposited data

Results flagged for a closer look

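The direction of the exercised minus sedentary difference in exon share differed between arms, at 1.14 percentage points in SIT and 0.208 in left against -1.06 in right, with 1 list per condition and arm. The 3' UTR share did the same, at 0.213 in SIT and 0.0596 in left against -0.315 in right. Among peaks of 1000 to 2000 bp the exon share differences were smaller, at 0.343 in SIT, 0.0597 in left and -0.451 in right. Whether the arms differ was not tested, as an arm holds a single pair of lists. None of the 11 differences over 6 lists had a list that stood apart by Dixon's criterion.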

How the results depend on the processing

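Of 48 variations of the comparisons over 6 lists, 41 kept direction and side of the threshold, 4 lost the threshold and 3 changed direction, where p = 0.03125 is the smallest these exact permutation tests allow. The other 11 concern comparisons over 3 arms, which cannot pass the threshold under any setting, and 4 of these changed direction. Among peaks of 1000 to 2000 bp, the exon share difference was -0.0162 points, the overlap of exon peaks with all 5 other lists exceeded that of intron peaks by 2.26 points (adjusted exact permutation p = 0.0625) and with the other condition by 1.92 points, and for 3' UTR peaks these were -0.203 and -0.420 points. With distal intergenic peaks as comparison, exon peaks met the other condition more often by 2.00 points, and 3' UTR peaks met all 5 lists more often by 0.257 points and the other condition by -0.919 points. The 3' UTR share difference was 0.0300 points in the widest 50% of peaks and 0.0157 of covered bases. The exon rank difference was 0.00324 in transcripts of at least 10 exons. The causes were not tested.

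Leaving out 1 list at a time kept every direction, but with 5 lists the exact permutation test cannot go below p = 0.0625. The differences then ran from 171 to 203 bp for exon width, 117 to 136 bp for 3' UTR width, 6.15 to 6.93 points and 3.22 to 3.68 points for overlap with all other lists (exon, 3' UTR), 5.48 to 6.53 and 2.96 to 3.50 points for the other condition, 1.45 to 1.60 and 2.45 to 2.77 points for G+C content, -80609 to -74055 bp and -49032 to -44079 bp for gene length, and -10396 to -9116 bp for distance. No paired analysis was possible because the lists carry no replicate numbers, so conditions could be set side by side only within an arm, list against list. Depth is unknown, peaks have no height, and list length ran from 12168 to 38136 peaks, which limits every statement on presence and absence.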
